A study of Rattus with 4 samples.

Results

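Intergenic peaks are the places where RNA that came down with RBM25 mapped outside every gene of the annotation. RBM25 is an RNA-binding protein that takes part in alternative splicing, and the study worked with the rat line H9C2, which was established from embryonic heart tissue and has the features of myoblasts. A peak was taken as intergenic where the deposited annotation gave it that class and no gene. By this rule 106 of the 2696 peaks of replicate 1 were intergenic (3.93%, 95% Wilson interval 3.26 to 4.73). In replicate 2 the number was 227 of 8108 (2.80%, 2.46 to 3.18), so that both lists together held 333 of 10804.

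All 4 samples are from H9C2, with 2 immunoprecipitates of RBM25 (IP) and 2 inputs. Ultraviolet light was used to cross-link RNA to protein, and lysates were treated with DNase and micrococcal nuclease before stranded total RNA libraries were made. The labels name no treatment other than IP or input. The study also used cells that overexpress RBM25, and the labels do not say whether the IP samples were such cells. The peak list of each IP was analysed, and the inputs were not analysed here. The labels do not say whether separate cultures were used for the replicates. Library depth is unknown, and a list can be longer because its library was deeper. Of 20 listed myoblast and muscle genes, 3 had a peak in replicate 1 and 8 in replicate 2. Tpm1, Tnnt2 and Cald1, which encode proteins of the contractile apparatus, had a peak in both, and Myod1, Myog, Des, Gata4 and Nkx2-5 had none in either. Peaks do not give expression levels, so this is no test of the cell type.

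RNA outside annotated genes has several known sources. Genes for ribosomal RNA lie in repeated copies, many of which assemblies leave in pieces or on unplaced scaffolds, and the spacers between them are not annotated as genes. Long noncoding RNAs can be missing from an annotation, and transcripts can run past the annotated end of a gene. Splicing factors with RS-rich or RE/RD-rich domains, such as RBM25, are found in nuclear speckles, bodies that also hold the long noncoding RNA Malat1 in human and mouse cells.

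The height of a peak is given as its tags, the authors' signal per 50-nt bin, averaged over bins where a peak is longer than 1 bin. Sums and shares of tags, here and below, add 1 height per peak without weight for its length. The median height of intergenic peaks was 34 tags in replicate 1 and 33 in replicate 2. Peaks in genes had medians of 24 and 26 tags. Intergenic peaks held 7.60% of the summed heights of replicate 1. Their share of its covered length, which counts every bin of a peak, was 4.68% (6.7 of 143.25 kb). Their mean was 56.4 tags per peak against 29.2 over all peaks. In replicate 2 they held 4.86% of the summed heights and 3.13% of the covered length (13.75 of 439.5 kb), with means of 55.0 and 31.6. Of the 20 tallest peaks of each list, 8 were intergenic in replicate 1 and 10 in replicate 2. The tallest intergenic peak had 453 tags in replicate 1, where it was the tallest of all, and 614 in replicate 2, where it was in place 2. Longer peaks were more frequent among them: 83.0% of intergenic peaks were 51 nt long in replicate 1, against 95.4% of peaks in genes, and in replicate 2 the shares were 84.1% and 93.2%.

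**Figure D1:**
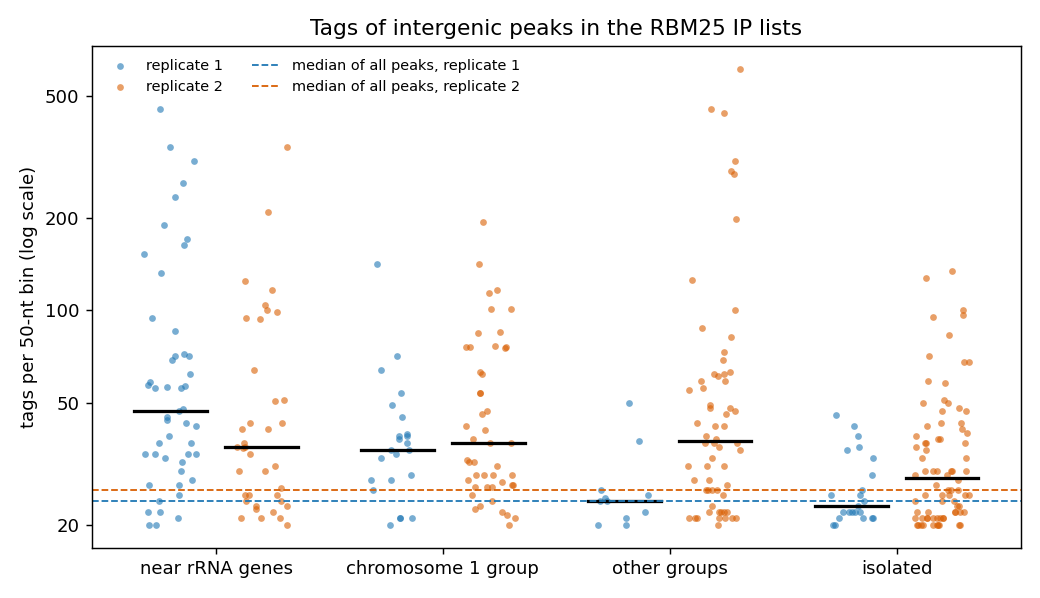
Tags per peak (log axis) for each intergenic peak of both replicates, split into peaks near ribosomal RNA genes, peaks of the chromosome 1 group, peaks of other groups and isolated peaks, with black lines at the medians and dashed lines at the median of all peaks of each list. In replicate 1 the median was 47 tags near ribosomal RNA genes and 23 in isolated peaks, and in replicate 2 it was 35.75 and 28.5.

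Peaks of either list and strand that overlapped or touched were joined into 178 loci, and loci with gaps under 50 kb were linked into groups. This gave 22 groups with 111 loci, and 67 loci were isolated. The groups held 83 of the 106 peaks of replicate 1 (78.3%, 69.5 to 85.1) and 147 of the 227 of replicate 2 (64.8%, 58.3 to 70.7). The 3 largest gaps inside a group were 34800, 34950 and 37000 nt, and the 3 smallest that separated loci were 54750, 66700 and 69800 nt. Both lists had peaks in 9 groups, replicate 1 alone in 1 and replicate 2 alone in 12. Most groups were small, 11 with 2 loci and 6 with 3. The 13 groups with under 5 peaks held 5 peaks of replicate 1 and 31 of replicate 2. Intergenic peaks lay on 19 chromosomes and 2 unplaced scaffolds, and chromosomes 1 and 3 held 54 of 106 in replicate 1 and 108 of 227 in replicate 2. Of all peaks, these chromosomes held 635 of 2696 (23.6%) and 1801 of 8108 (22.2%).

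The tallest peaks of replicate 1 lay beside ribosomal RNA genes, which encode the RNA of the ribosome. Within 50 kb of a peak in such a gene there were 49 intergenic peaks in replicate 1 (46.2% of its intergenic peaks, median 47 tags) and 38 in replicate 2 (16.7%, median 35.75 tags). They held 5.24% of the summed heights of all peaks of replicate 1, on 3.4 kb with a mean of 84.1 tags per peak. In replicate 2 they held 0.862% of the summed heights, on 2.85 kb with a mean of 58.2. Away from these genes, 57 intergenic peaks of replicate 1 had a median of 26 tags, against 24 for peaks in genes. In replicate 2 the 189 such peaks had a median of 32 tags, against 26 for peaks in genes and 33 for all intergenic peaks. Copies of ribosomal RNA genes are nearly identical, so reads could be split or placed among copies, and the position of a single peak is uncertain there.

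The group beside ribosomal RNA genes with the most peaks was on chromosome 3, 2227650 to 2267300 in mRatBN7.2, with 12 loci, 23 peaks in replicate 1 and 22 in replicate 2. It lay around LOC120102105 and LOC120093067, both with the biotype rRNA in the name table. LOC108352829, not counted here as a ribosomal RNA gene, also had peaks there, 6 in replicate 1 and 5 in replicate 2. The intergenic peaks of the group fell into a left block from 2227650 to 2234700 and a right block from 2265300 to 2267300, 30.6 kb apart. The tallest peak of replicate 1, at 2267200 to 2267300 on the plus strand, had 453 tags, and the peak of replicate 2 that overlapped it had 101. In the left block a minus-strand peak at 2233850 to 2233900 had 340 tags in replicate 1, and its overlapping peak had 43 in replicate 2. The other direction also occurred, since the tallest peak of replicate 2 in the group, at 2266850 to 2266900 on the plus strand, had 209 tags and overlapped a peak of 153 tags in replicate 1. The plus strand held 53.8% of the group's summed heights in replicate 1. Means there were 111 tags per peak on the plus and 87.8 on the minus strand, over 1050 and 850 nt. In replicate 2 the plus strand held 75.8%, with means of 64.9 and 36.3 over 1250 and 650 nt. Neither share is weighted by peak length.

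On unplaced scaffold 149 a group of 15 loci ran from 17600 to 74000, with 18 peaks in replicate 1 and 13 in replicate 2. Its neighbours included Rn45s, the gene of the ribosomal RNA precursor, with peaks from 64200 to 69050. Rn18s, which encodes the RNA of the small ribosomal subunit, was another. LOC310926, not counted here as a ribosomal RNA gene, had 6 peaks in replicate 1 and 13 in replicate 2, from 68250 to 71700. Most intergenic peaks of the group sat in the block from 72650 to 74000, 11 in replicate 1 and 10 in replicate 2. The gene with a peak nearest to this block was LOC310926, 950 nt away. In the block, 5 peaks of each list overlapped a peak of the other on the same strand. The tallest peak of replicate 1 in the group, at 72850 to 72900 on the minus strand, had 307 tags. In replicate 2 the tallest was elsewhere, at 55200 to 55250, with 342 tags on the plus strand and 99 on the minus strand. The plus strand held 31.7% of the group's summed heights in replicate 1, with means of 48.6 tags per peak on the plus and 131 on the minus strand, each over 500 nt. In replicate 2 it held 68.3%, with means of 80.75 and 59.9 over 450 and 350 nt. The strand with the larger sum of heights thus differed between the lists on this scaffold, and with 2 lists this difference has no test.

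A smaller group on unplaced scaffold 131, from 77400 to 83850, held 8 peaks in replicate 1 and 3 in replicate 2. The nearest named gene was Rn28s, which encodes the RNA of the large ribosomal subunit, with its nearest peak 3200 nt to the right. LOC120099695, with the biotype rRNA, had a peak 550 nt from the last locus of the group. LOC108351097, not counted here as a ribosomal RNA gene, had 12 peaks in replicate 1 and 3 in replicate 2, from 79500 to 82650. The tallest intergenic peak of the group had 62 tags in replicate 1 and 24 in replicate 2. One bin, 78100 to 78150 on the plus strand, was called in both lists, with 44 tags in replicate 1 and 24 in replicate 2.

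**Figure D2:**
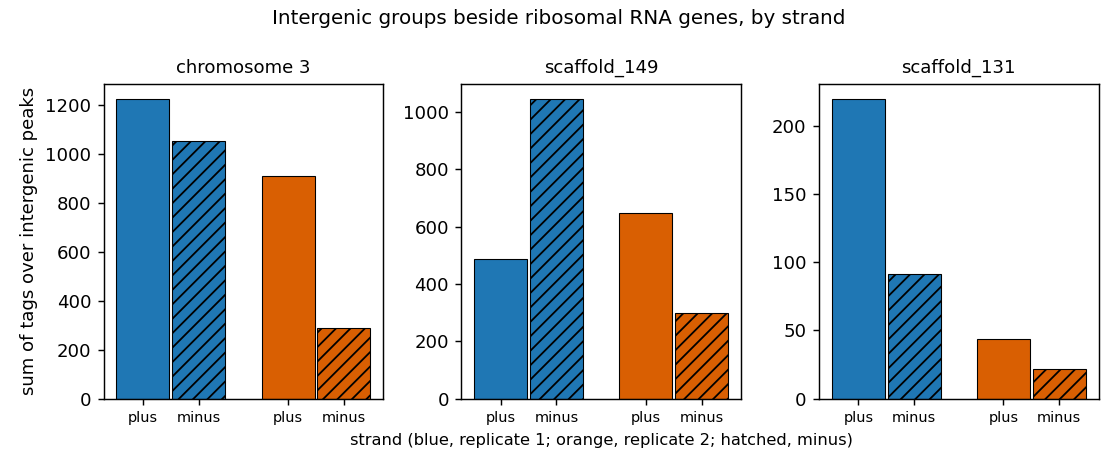
Tags of the intergenic peaks in the groups beside ribosomal RNA genes, summed by strand and replicate, each panel with its own axis. Each peak adds its height once, without weight for its length. On scaffold 149 the minus strand had the larger sum in replicate 1 (1045.5 against 486) and the plus strand in replicate 2 (646 against 299.5).

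The group with the most peaks of all was on chromosome 1, from 203082800 to 203125400, a span of 42.6 kb with 32 loci. It held 23 peaks of replicate 1 (21.7% of its intergenic peaks) and 47 of replicate 2 (20.7%). To its right, 3800 nt away, began the peaks of LOC120097382, a long noncoding RNA gene in the name table, with 12 peaks in replicate 1 and 17 in replicate 2. Whether the intergenic peaks and those of LOC120097382 belong to the same transcript was not tested.

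The group had a dense part and a sparse part. From 203082800 to 203088600, a span of 5.8 kb, there were 23 loci with 19 peaks in replicate 1 and 35 in replicate 2. After a gap of 24.75 kb, 9 loci with 4 and 12 peaks followed, from 203113350 to 203125400, and no peak there was over 35 tags in replicate 1 or 38 in replicate 2. In replicate 1 the tallest peak of the group was at 203087300 to 203087350, with 142 tags on the minus and 71 on the plus strand. Replicate 2 had no peak in that bin on either strand, though its plus-strand peak from 203087150 to 203087300, with 40.7 tags, touched the bin. Its own tallest peak was at 203088050 to 203088100, with 194 tags on the minus and 114 on the plus strand, and the minus-strand bin 203088150 to 203088200 had 142. Median heights over the group were 35 and 37 tags. Its peaks held 1.21% of the summed heights of replicate 1 (1.35 kb, mean 41.2 tags per peak) and 0.956% of those of replicate 2 (3.4 kb, mean 52.1).

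Peak heights in this group, summed without weight for length, were near balance between the strands. In replicate 1 they summed to 462.5 on the plus and 486 on the minus strand, or 48.8% plus. These peaks covered 800 and 550 nt, with means of 38.5 and 44.2 tags per peak. In replicate 2 the sums were 1197.5 and 1253.5, or 48.9% plus, over 1850 and 1550 nt with means of 49.9 and 54.5. The plus strand covered more length in both lists, and a balance weighted by length was not computed. The bin 203083300 to 203083350 had 101 tags on each strand in replicate 2, and 203087900 to 203087950 had 76 on each. The neighbouring LOC120097382 also had peaks on both strands: at 203129350 to 203129400 replicate 2 had 42 tags on the sense and 42 on the antisense strand. Whether tags on both strands come from RNA of both strands was not tested.

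**Figure D3:**
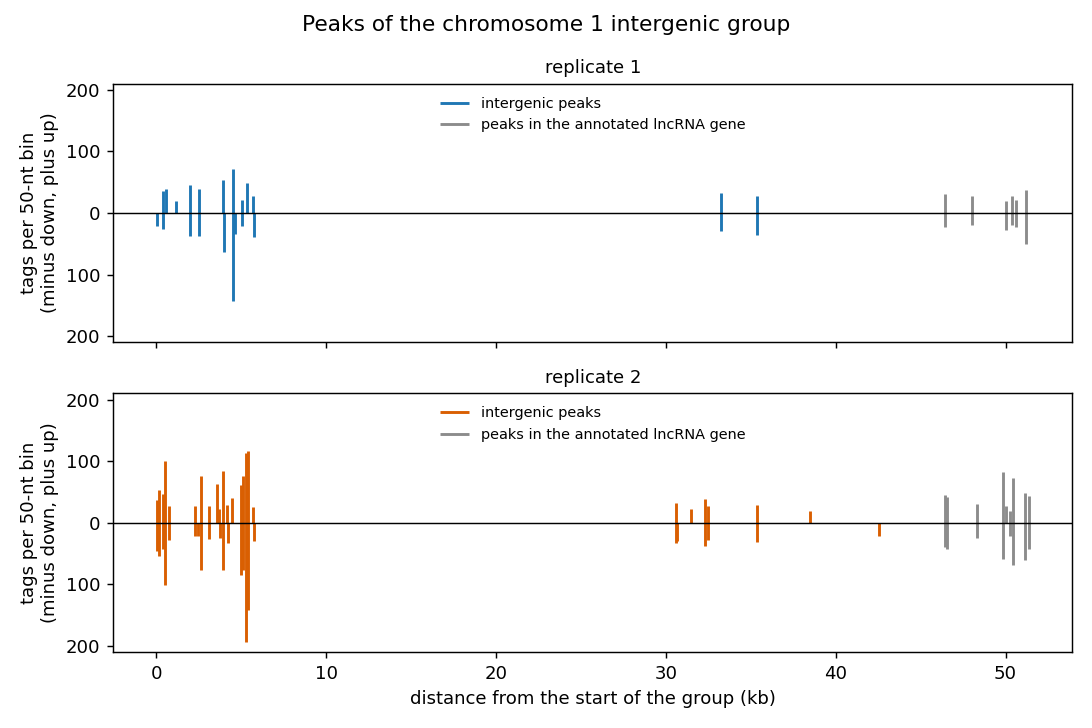
Tags of each peak of the chromosome 1 group against distance from its left end in kb, with plus-strand peaks above and minus-strand peaks below the axis, for both replicates, and grey lines for peaks of LOC120097382. In both replicates the tall peaks of the group sit in the left 5.8 kb. Summed heights are near balance between the strands, but single pairs can differ. The tallest pair had 142 tags on the minus and 71 on the plus strand in replicate 1, and 194 and 114 in replicate 2.

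A group on chromosome 9, from 25653000 to 25721850, had 13 peaks in replicate 2 and 0 in replicate 1. At 25653000 to 25653100 it had 453.5 tags on the plus strand and 278.5 on the minus strand. At 25660550 to 25660600 the minus strand had 439 tags and the plus strand 59. At its right end the plus-strand bin 25721750 to 25721800 had 286 tags. Summed without weight for length, heights came to 940.5 on the plus and 948.5 on the minus strand. These peaks covered 350 and 400 nt, with means of 157 and 135.5 tags per peak. The nearest gene with a peak was LOC120094650, a long noncoding RNA gene 16850 nt to the left, and the nearest named genes, Mcm3 and Rab23, were 2430300 and 10224000 nt away. Mcm3 encodes a subunit of the helicase that opens DNA for replication, and Rab23 a small GTPase. No peak of replicate 1 touched these 6 loci, on either strand.

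Groups on chromosomes 1 and 4 were also found in replicate 2 alone. On chromosome 1, from 133305500 to 133326500, 5 peaks lay on both sides of peaks of Rlbp1, which encodes a retinal-binding protein, and 10700 nt or more from those of Abhd2, a lipid hydrolase gene. The tallest had 199 tags on the plus strand, with 59 on the minus strand. On chromosome 4, from 150628100 to 150639350, 5 peaks reached 73 tags, and the nearest named gene was Hnrnpf, a splicing factor gene 463650 nt to the right. A group on chromosome 3, from 162075550 to 162100150, was chosen for naming after its values were seen. It had 4 peaks in replicate 2, with 126, 307 and 614 tags on the minus strand and 21 on the plus strand, and 0 in replicate 1. The peak of 614 tags is the tallest intergenic peak of replicate 2. Genes with peaks to either side were Ube2v1, a ubiquitin-conjugation factor, and Gnas, which encodes the stimulatory G protein alpha subunit and lay 1035400 nt away.

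Other groups had peaks in both lists at a few bins. On chromosome 18, from 7541350 to 7541700, replicate 1 had 2 peaks and replicate 2 had 5, and 1 pair overlapped on the plus strand with 24.5 and 47 tags. The nearest named gene there was Mib1, an E3 ubiquitin ligase gene 5702450 nt to the left. On chromosome 4, from 11824750 to 11825350, replicate 1 had 4 peaks and replicate 2 had 3. The plus-strand bin 11825300 to 11825350 recurred, with 50 tags in replicate 1 and 63 in replicate 2. Kmt2e, which encodes a chromatin regulator, lay 149050 nt away. On chromosome 10, 950 nt from the peaks of Cavin1, a caveola coat gene, a minus-strand peak recurred with 37.5 tags in replicate 1 and 62 in replicate 2.

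Recurrence was measured as overlap with a peak of the other list on the same strand. In replicate 1, 36 of the 106 intergenic peaks recurred (34.0%, 25.6 to 43.4), where 61.0% of all peaks of the list did. In replicate 2 it was 39 of 227 (17.2%, 12.8 to 22.6), where 20.3% of all peaks did. The interval of replicate 1 lies below the share of all its peaks, and that of replicate 2 holds the share of all its peaks. Without the peaks beside ribosomal RNA genes, 23 of 189 recurred in replicate 2 (12.2%, 8.25 to 17.6), an interval below the share of all its peaks, and 22 of 57 in replicate 1 (38.6%, 27.1 to 51.6). These intervals take peaks as independent, which those of a group are not. Every recurring intergenic peak met a peak that was itself intergenic, which is largely fixed because a shared bin has the same annotation in both lists. Counting peaks within 1 bin raised these shares. Beside ribosomal RNA genes they went from 28.6% to 63.3% in replicate 1 and from 42.1% to 84.2% in replicate 2. In the chromosome 1 group they went from 47.8% to 69.6% and from 25.5% to 46.8%. Over all intergenic peaks the shares within 1 bin were 58.5% and 30.8%, against 67.0% and 23.0% of peaks in genes. Away from ribosomal RNA genes they were 54.4% (31 of 57) and 20.1% (38 of 189). The interval of replicate 2 then held the share of peaks in genes, so its lower recurrence there depended on exact overlap. The interval of replicate 1 (41.6 to 66.6) ended just below that share. In replicate 2, isolated peaks (11.25%) and peaks of other groups (11.3%) stayed lower, with intervals that ended below 23.0%.

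In the chromosome 1 group 11 of 23 peaks of replicate 1 recurred (47.8%, 29.2 to 67.0) and 12 of 47 of replicate 2 (25.5%). In the groups away from it and from ribosomal RNA genes, the counts were 3 of 11 and 3 of 62 (4.84%). Isolated peaks recurred in 8 of 23 cases in replicate 1 (34.8%, 18.8 to 55.1) and 8 of 80 in replicate 2 (10.0%, 5.15 to 18.5). Away from ribosomal RNA genes the share differed by height. Of the replicate 1 peaks there, 4 of 24 with under 25 tags recurred (16.7%, 6.68 to 35.9), where 57.0% of such peaks in genes did. With 25 to under 40 tags it was 12 of 24 (50%, against 70.8% in genes), and with 40 or more it was 6 of 9 (66.7%, 35.4 to 87.9, against 58.0% in genes). In replicate 2 the counts in the same classes were 1 of 51 (1.96%, against 10.2% in genes), 7 of 66 (10.6%, against 25.3%) and 15 of 72 (20.8%, 13.1 to 31.6, against 33.0%).

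**Figure D4:**
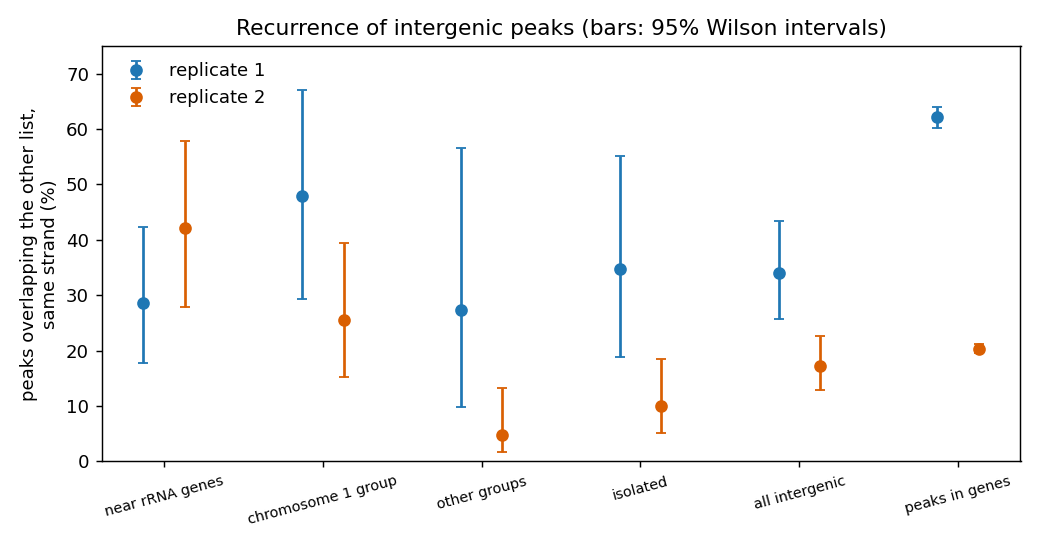
Percent of peaks of each replicate that overlap a peak of the other list on the same strand, for the sets of intergenic peaks and for peaks in genes, with 95% Wilson intervals as bars. In replicate 1, 62.1% of peaks in genes and 34.0% of intergenic peaks recurred, and in replicate 2 the shares were 20.4% and 17.2%.

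For the 36 recurring peaks of replicate 1, the list with the taller peak differed between places beside ribosomal RNA genes and elsewhere. Away from these genes, 16 of 22 had more tags in replicate 2, with a median ratio of replicate 2 to replicate 1 of 1.46. Beside them, 11 of 14 had more tags in replicate 1, with a median ratio of 0.508. For recurring peaks in genes, 1232 of 1609 had more tags in replicate 2 and the median ratio was 1.25. In the chromosome 1 group 8 of 11 were higher in replicate 2 (median ratio 1.34), among them the plus-strand bin at 203083150 with 35 tags in replicate 1 and 47 in replicate 2. Each peak of replicate 1 was set against the tallest peak of replicate 2 that overlapped it, which can raise the ratio. Paired peaks can also differ in length. At 203083300 on the plus strand, a 101-nt peak of 39.5 tags in replicate 1 was set against a 51-nt peak of 101 tags. Tags are not scaled for depth, and the 2 lists give no test of these ratios.

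**Figure D5:**
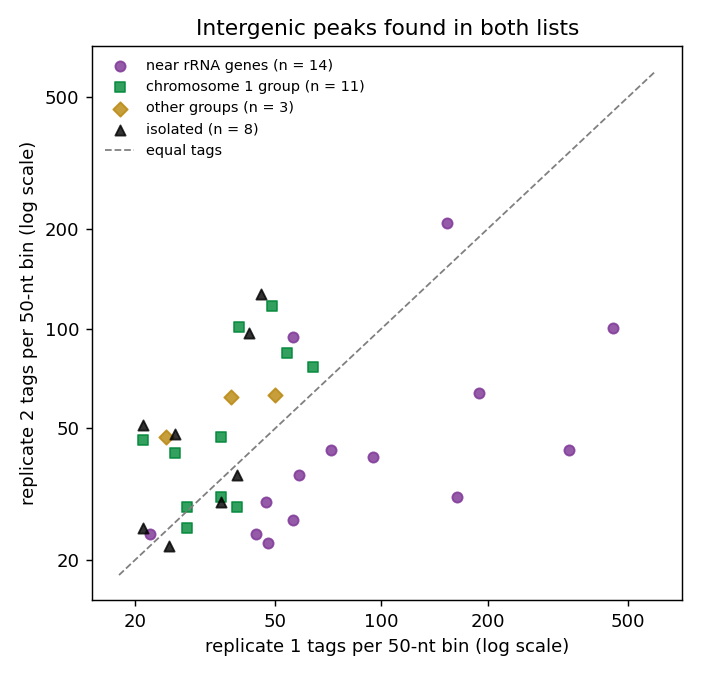
Tags in replicate 2 against tags in replicate 1 (both log axes) for the 36 intergenic peaks of replicate 1 that recur, with the line of equal tags. Each is set against the tallest overlapping peak of replicate 2. Of the 14 pairs near ribosomal RNA genes, 11 lie below the line, and of the 22 pairs elsewhere, 16 lie above it.

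Many intergenic peaks had a peak on the opposite strand in a shared bin of the same list. In replicate 1 this held for 56 of 106 (52.8%, 43.4 to 62.1), where 46.2% of all peaks had such a partner. In replicate 2 it held for 136 of 227 (59.9%, 53.4 to 66.1), where 70.0% of all peaks did. Every partner was intergenic too, which the classes largely fix, since a peak opposite a gene is classed as antisense and carries that gene. The chromosome 1 group had the share 16 of 23 (69.6%) in replicate 1 and 38 of 47 (80.9%) in replicate 2. Isolated peaks had 10 of 23 (43.5%) and 44 of 80 (55.0%), and peaks beside ribosomal RNA genes 26 of 49 (53.1%) and 20 of 38 (52.6%). Among pairs of 51-nt peaks on the same bin, 19 in replicate 1 and 51 in replicate 2, the median ratio of plus to minus tags was 1 in both. The ratio ran from 0.0342 to 3.77 in replicate 2, and its lowest value was the pair with 614 minus-strand tags on chromosome 3, between Ube2v1 and Gnas.

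Of the 67 isolated loci, 7 had peaks in both lists, 10 in replicate 1 alone and 50 in replicate 2 alone. In 6 of the 7 the same strand recurred. On chromosome 1, 96868400 to 96868500, replicate 1 had 45.5 tags on the plus and 42 on the minus strand, and replicate 2 had 127.5 and 97. This locus lay 328250 nt from the peaks of Nomo1, which encodes a membrane protein of the endoplasmic reticulum. On chromosome 7, 116768700 to 116768750, minus-strand tags were 26 in replicate 1 and 48 in replicate 2. The nearest gene with a peak was LOC120093706, 10900 nt away, and the nearest named gene was Gramd4, 412600 nt away. On chromosome 2, 188544800 to 188544900, the plus strand had 21 and 51 tags and the minus strand, in bins that did not overlap, 20 and 42, 53250 nt from Ptgfrn, which encodes a regulator of the prostaglandin F receptor. All of these had more tags in replicate 2.

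Other recurring isolated loci had like heights in both lists. On chromosome 12, 9470600 to 9470650, the plus strand had 39 tags in replicate 1 and 36 in replicate 2, 3200 nt upstream of the peaks of Pdap1. On chromosome 6, 12926250 to 12926300, the plus strand had 25 and 22 tags, and the nearest named gene was Dhx57, a putative RNA helicase gene 1799000 nt away.

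Isolated loci seen in 1 list alone were mostly low. In replicate 1 the tallest was on chromosome 5, 57749100 to 57749150, with 36 tags on the minus strand, 39300 nt from Tln1, the gene of the focal adhesion protein talin. The next was on chromosome 12 at 34472600, with 33 tags on the plus and 29 on the minus strand, 72200 nt from Ppp1cc, a protein phosphatase gene. The next 3 had 25, 24 and 23 tags, all on the minus strand, and lay far from named genes with peaks. The nearest were Arhgap22 at 474050 nt, Fnbp1 at 146000 nt and Cast at 3965650 nt, and the last locus lay 44850 nt from the peaks of LOC120100640. In replicate 2 the tallest was on chromosome 3, 37169350 to 37169400, with 134 tags on the plus and 100 on the minus strand, 53900 nt from Cacnb4, a calcium channel subunit gene. On chromosome 5 at 29724100 the plus strand had 95 tags, 6050 nt from the peaks of LOC689308 and 62150 nt from those of Ripk2, the gene of a kinase of innate immune signalling. On chromosome 2 at 188421500 it had 83 with 22 on the minus strand, 41300 nt from Ttf2. Beside Strn4 on chromosome 1, at 77513500 and 77446750, the plus strand had 59 and 43 tags and the minus strand 71 and 68.

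Both strands were present at 27 isolated loci. These were 6 of the 7 in both lists, 2 of the 10 in replicate 1 alone and 19 of the 50 in replicate 2 alone. The isolated loci with 1 strand in replicate 2 alone were on the plus strand in 22 cases and on the minus strand in 9. In replicate 1 alone they were on the plus strand in 2 cases and on the minus strand in 6. Of all isolated peaks, 58.75% of replicate 2 (47.8 to 68.9) and 43.5% of replicate 1 (25.6 to 63.2) were on the plus strand. These intervals hold the shares of all peaks on that strand, 51.9% in replicate 2 and 49.7% in replicate 1.

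The distance from an intergenic locus to the nearest peak in a gene had a median of 39975 nt. Of 178 loci, 38 lay within 5 kb (21.3%) and 105 within 50 kb (59.0%), and 27 lay beyond 1 Mb. For isolated loci the median was 106000 nt, with 9 of 67 within 5 kb and 13 beyond 1 Mb. Distances are to peaks and not to gene ends, since annotated gene models were not used here. The farthest was on chromosome 13, where the nearest peak in a gene was in Ralb, a small GTPase gene 11787350 nt away.

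Of the 9 isolated loci within 5 kb, 5 lay upstream and 4 downstream of the called peaks of the nearest gene, by the strand of its sense peaks. Downstream were loci beside Calm3 (650 nt), Tagln (650 nt), Hist2h2aa3 (1350 nt) and Col1a2 (1600 nt), with 20 to 35 tags, all in replicate 2 alone. These genes encode a calmodulin, an actin-binding protein of smooth muscle, a histone and a collagen chain. The peaks beside Calm3 and Col1a2 were on the strand of the gene. The peak beside Hist2h2aa3 was on the opposite strand, and the locus beside Tagln had peaks on both strands. Among those upstream were loci beside Cds2 (0 nt), Hsp90ab1 (2000 nt) and Hmgb1 (2050 nt), with 21 to 30 tags in replicate 2 alone, and the locus beside Pdap1. The locus beside Cds2 touched a peak of that gene, so it was isolated from other intergenic loci only. Of the 9, the locus beside Pdap1 was the one found in both lists.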

How the data were processed

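The authors deposited 1 peak list per IP, matched to its sample by name. Its tags are an unscaled signal, per the file headers and the values. The authors' p-value was used to keep the better-ranked peaks in 1 alternative. Per the submitters' processing notes, reads of this series involved HISAT2 and the rat build mRatBN7.2. Not given in the sources used here are the peak caller, its filters, its treatment of strand and multi-mapping reads, and whether inputs entered the calls.

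Peaks overlapped if they shared at least 1 bin of the 50-nt grid; a shared end point was not an overlap. Shares have 95% Wilson intervals, which cover counting error only. No test was run, since the lists are replicates of 1 condition and peaks of a list share a library. The rule for named loci was groups of 5 or more peaks, up to 10 recurring isolated loci by mean rank of tags, and the 5 tallest isolated loci of each list with no overlap in the other. The isolated loci near genes and single peaks within groups were also chosen after their values were seen. Members, lists and rules were chosen with earlier results of these data known. The definition of ribosomal RNA genes by biotype, the blocks within groups and the tag classes were chosen after seeing the data. Some loci and genes that the naming rule selects are not reported here. Names and biotypes came from a RefSeq table of GRCr8; none of its coordinates were used. Genome sequence was not used here. Procedures were tested on simulated data. The software was Python 3.11.15 with pandas 2.3.3, numpy 2.4.6, scipy 1.17.1 for intervals, and matplotlib 3.10.9 for figures.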

Additional observations from a re-analysis of the deposited data

How the results depend on the processing

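Of 113 alternative values over 17 results, 74 stayed within the counting interval of a share of peaks or loci or, for tag shares and medians, the spread between replicates, or near the number of groups, and 39 moved further. The spread taken for tag shares and medians was narrower than the difference between replicates, so a median of 33 tags in replicate 1 counted as moved. Keeping the peaks with p-values at or below the median of each list gave intergenic shares of 5.68% and 3.47% of peaks in replicates 1 and 2, 10.5% of the tags of replicate 1, and 14 groups. Without unplaced scaffolds, replicate 1 had 3.04% of peaks, 5.61% of tags and a median of 33 tags, and 13.4% of loci lay within 5 kb of a peak in a gene. Leaving out neighbours of the listed ribosomal RNA genes as well gave the same shares and median. It could not differ, since the listed genes with peaks lie on those scaffolds. No isolated locus lies on a scaffold, so isolated recurrence could not move either. Such repeats are counted among the 113 values. Leaving out scaffolds together with the neighbours of any ribosomal RNA gene, an alternative added after seeing the data, gave 2.21% of peaks, 2.67% of tags and a median of 26 tags in replicate 1, and 2.36% of peaks, 12.2% recurrence and a median of 32 tags in replicate 2. Without the group with the most peaks the shares were 3.11% and 2.23%, and the median in replicate 2 was 32 tags. With 51-nt peaks alone, recurrence was 20.5% and 9.42%, the share with an opposite-strand partner 43.2% and 53.4%, and the median 31 tags in both. Within 1 bin, recurrence was 58.5% and 30.8% and the partner share 67.0% and 70.5%. On either strand, recurrence in replicate 2 was 23.3%. With partners from either list, the share in replicate 1 was 63.2%. Gaps under 10 kb, gaps under 200 kb and groups of 3 or more loci put 56.8%, 72.2% and 54.6% of replicate 2 peaks in groups, and the last left 11 groups. Leaving out 1 replicate gave 6 to 20 groups, 19.7% to 31.2% of loci within 5 kb and 59.2% to 70.1% within 50 kb, the low number of groups without replicate 2. The cause of these moves was not tested.

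Without peaks near ribosomal RNA genes, whose copies are nearly identical, the median height in replicate 1 was 26 tags in place of 34. Depth is unknown, and the lists hold no peak under 19 tags in replicate 1 or 20 in replicate 2, so absence from a list is not absence of RNA. No paired analysis was possible because the inputs, which share replicate numbers with the IPs, were not analysed and no groups were compared.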
